A study of Mus musculus with 9 samples.

Results

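The genes described here encode the proteins of the cytosolic ribosome, and the measurement is the accessibility of their transcription start sites (TSSs) in mouse embryonic fibroblasts (MEFs). Members were the protein-coding genes on chromosomes 1 to 19 of the GENCODE M21 annotation whose symbols are Rpl or Rps followed by digits and at most 1 letter a or x, together with Rplp0, Rplp1, Rplp2 and Rpsa. The rule found 72 of 20807 protein-coding genes, 43 for the large (60S) and 29 for the small (40S) subunit, on 18 chromosomes and with 14 on chromosome 7. The rule uses name, gene type and chromosome, and no value of the peak lists.

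Accessibility had been measured by ATAC-seq, a transposase assay that marks open DNA, in bulk primary MEFs kept below passage 8. The groups were wild type (WT, 3 libraries), Anp32e null, which lack ANP32E, a chaperone that removes the histone variant H2A.Z (3 libraries), and Anp32e null transfected with either a non-targeting (NT) siRNA pool (1 library) or a pool of 4 siRNAs against H2A.Z (2 libraries). Both siRNA groups therefore carry the null genotype, and there was no siRNA group in WT cells. A single peak list stands for all libraries of a group, so differences between lists had no replicate check. No test was made, and printed intervals cover counting error only. In bulk cells, fewer open copies of a promoter and less opening of each copy cannot be told apart. Runs of 4 values below follow the order WT, null, NT siRNA, H2A.Z siRNA.

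Each ribosome contains a single copy of nearly every ribosomal protein, and their genes are among the most highly transcribed in growing cells. The small subunit reads the mRNA, whereas the large subunit joins amino acids and holds the stalk that recruits elongation factors. Promoters of these genes typically lack a TATA box and start transcription within a run of pyrimidines, the 5′ terminal oligopyrimidine (TOP) tract, through which mTOR signalling controls translation of the mRNA. Several of the genes also carry small nucleolar RNA (snoRNA) genes in their introns, and 27 members hosted 54 of them.

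The sequence around the start is shown first because the peaks were measured against it. A run of 8 or more C or T on the sense strand within 10 bases of the reference TSS, the 5′ end of the principal transcript, occurred in 18 of 72 members (25%) and in 7.8% of all protein-coding genes. The following lines give the bases from 30 before to 20 after the reference TSS in GRCm38, 5′ to 3′, with the pyrimidine run in capitals, for members whose peaks are described further on. They are Rps24 (chr14:24490688-24490738, plus strand), Rps27 (chr3:90213631-90213681, minus strand), Rpl31 (chr1:39367812-39367862, plus strand), Rpl19 (chr11:98026894-98026944, plus strand), Rps15 (chr10:80292423-80292473, plus strand), Rpl8 (chr15:76904048-76904098, plus strand), Rps16 (chr7:28350622-28350672, plus strand) and Rpl36 (chr17:56613386-56613436, plus strand).
Rps24: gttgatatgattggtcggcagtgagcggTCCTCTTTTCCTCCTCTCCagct
Rps27: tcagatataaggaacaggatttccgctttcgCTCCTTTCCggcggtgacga
Rpl31: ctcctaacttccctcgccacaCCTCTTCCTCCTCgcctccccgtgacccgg
Rpl19: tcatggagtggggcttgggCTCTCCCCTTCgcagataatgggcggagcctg
Rps15: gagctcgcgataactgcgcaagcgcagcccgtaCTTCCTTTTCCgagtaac
Rpl8: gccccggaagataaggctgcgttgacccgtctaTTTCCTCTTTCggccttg
Rps16: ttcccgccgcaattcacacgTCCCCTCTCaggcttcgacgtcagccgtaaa
Rpl36: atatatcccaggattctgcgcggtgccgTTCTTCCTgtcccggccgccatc
The longest of these 8 runs is that of Rps24, with 19 bases. Annotated starts limit this reading, since RefSeq placed the start of 52 matched members at the same base in 10 cases, within 10 bases in 16 and within 50 bases in 34, and up to 2614 bases away. A missing run says only that these letters are not beside the reference TSS used here.

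Short motifs were counted in the 250 bases before and 50 after the reference TSS, on both strands. CCGGAAG, the core bound by ETS factors such as GABP, was found in 23 of 72 members (31.9%), in 11.4% of all genes and in 15.6% of genes with a WT peak. GGGCGG (SP1) was found in 35 members (48.6%) and in 46.2% of all genes, but in 61.6% of genes with a WT peak. CCAAT (NF-Y) was found in 30.6% of members and 38.2% of all genes, TATAAA in 11.1% and 12.7% (7.69% of genes with a WT peak), GCCATNTT (YY1) in 12.5% and 6.39%, TGACGTCA (the cyclic AMP response element) in 6.94% and 2.48%, and CACGTG (the E-box) in 12.5% and 7.78%. A match can overlap one of another motif. Median GC content was 55.83% in members, 56.33% in all genes and 60.33% in genes with a WT peak, and the observed-to-expected CpG ratio was 0.859, 0.573 and 0.737. Members thus had a higher CpG ratio and a lower GC content than genes with a WT peak.

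Complete proximal promoters, from 200 bases before to 20 after the reference TSS, are given for 3 members whose WT summits lie inside or beside the printed bases and whose peaks moved most in a comparison. By rank of fold enrichment within a list, Rpl19 (chr11:98026724-98026944, plus strand) fell most in null, Rps9 (chr7:3703793-3704013, plus strand) rose most in NT siRNA and Rps15a (chr7:118116168-118116388, minus strand) rose most in H2A.Z siRNA. By −log10 p, Rpl19 rose more in NT siRNA (32.23 points) than Rps9 (10.24). Capitals mark matches to the motifs above on either strand.
Rpl19: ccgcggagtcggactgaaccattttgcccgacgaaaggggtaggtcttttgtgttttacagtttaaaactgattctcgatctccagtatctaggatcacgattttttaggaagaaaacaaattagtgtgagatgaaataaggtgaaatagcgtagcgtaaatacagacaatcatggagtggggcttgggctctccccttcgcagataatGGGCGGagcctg
Rps9: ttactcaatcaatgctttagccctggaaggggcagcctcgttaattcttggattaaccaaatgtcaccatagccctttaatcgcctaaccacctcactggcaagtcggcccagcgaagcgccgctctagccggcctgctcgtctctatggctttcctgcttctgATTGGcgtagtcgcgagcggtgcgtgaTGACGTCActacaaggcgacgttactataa
Rps15a: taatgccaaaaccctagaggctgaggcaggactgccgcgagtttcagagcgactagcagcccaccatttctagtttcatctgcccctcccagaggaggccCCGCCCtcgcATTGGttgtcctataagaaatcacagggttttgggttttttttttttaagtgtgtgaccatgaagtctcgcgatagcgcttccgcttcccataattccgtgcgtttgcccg
The printed Rps9 promoter holds matches for the cyclic AMP response element and NF-Y, and that of Rps15a SP1 and NF-Y. The printed Rpl19 bases hold a single match, an SP1 motif after the start, and an E-box match of this gene lies outside them. These are matches of letters and not measured binding.

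A gene was given the peak of highest fold enrichment within 1 kb of any of its annotated TSSs. Every ribosomal protein gene had such a peak in every list, 72 of 72 (100%, Wilson 95% interval 94.93 to 100%). Over all protein-coding genes the shares were 68.6%, 68.1%, 68.3% and 69.9%, and 65.2% had a peak in all 4 lists. For each member the 4 peaks shared bases. Between WT and null this held for 96.6% of all genes with a peak in both, between null and NT siRNA for 96.1%, and between NT siRNA and H2A.Z siRNA for 96.8%. The weakest summit of any member was a pileup of 40 fragments, at Rpl4 in null. All 78 mitochondrial ribosomal protein genes, 32 translation factors and 42 genes of ribosome assembly and rRNA transcription also had a peak in every list, so a peak at every gene is shared with these lists. As a check of the cell label, all 10 fibroblast markers had a TSS peak in each list, whereas 7, 8, 8 and 9 of 12 markers of other cell types had one in the 4 lists, with no peak at Ptprc or Nanog in any. The latter shares (58.33%, 66.67%, 66.67% and 75%) lay near those of all genes. Where a peak was present, median percentile ranks of fold enrichment (described below) were 60.76, 53.81, 46.02 and 53.32 for fibroblast markers. For the other markers they were 36.69, 26.30, 49.21 and 58.13, the higher of the 2 in both siRNA lists. The check thus rests on presence alone and is weak. Peak lists hold no RNA levels, so neither the absence of ANP32E nor the depletion of H2A.Z was checked here.

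Peak strength was read as the percentile rank of fold enrichment, the ratio of summit fragments to local background, within its own list, where 100 is the strongest peak. The median rank of members was 80.75, 74.39, 76.62 and 78.36, and that of all protein-coding genes 81.54, 79.85, 79.42 and 81.38. By this measure the median member peak lay below the median gene peak in every list. Mitochondrial ribosomal protein genes had medians of 86.33, 88.02, 89.83 and 90.62, above the cytosolic members in each list by this measure. Translation factors lay at 85.27, 82.80, 82.82 and 82.79, and assembly genes at 86.74, 84.43, 85.10 and 85.63. The order depended on the measure, since ranked by −log10 p the members lay at 86.11, 85.30, 92.17 and 93.11, against 85.47, 84.89, 88.52 and 89.92 for all genes and 88.4, 89.02, 91.8 and 91.51 for mitochondrial ribosomal protein genes, which stood above members in WT and null and below them in both siRNA lists. Median ranks of the 60S genes were 78.60, 72.97, 75.10 and 75.19, and those of the 40S genes 82.75, 76.39, 81.12 and 79.04. By −log10 p they were 85.58, 86.09, 92.61 and 93.86 for the 60S and 87.28, 82.68, 92.1 and 92.58 for the 40S genes, so the order of the subunits turned in every list but WT.

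**Figure D1:**
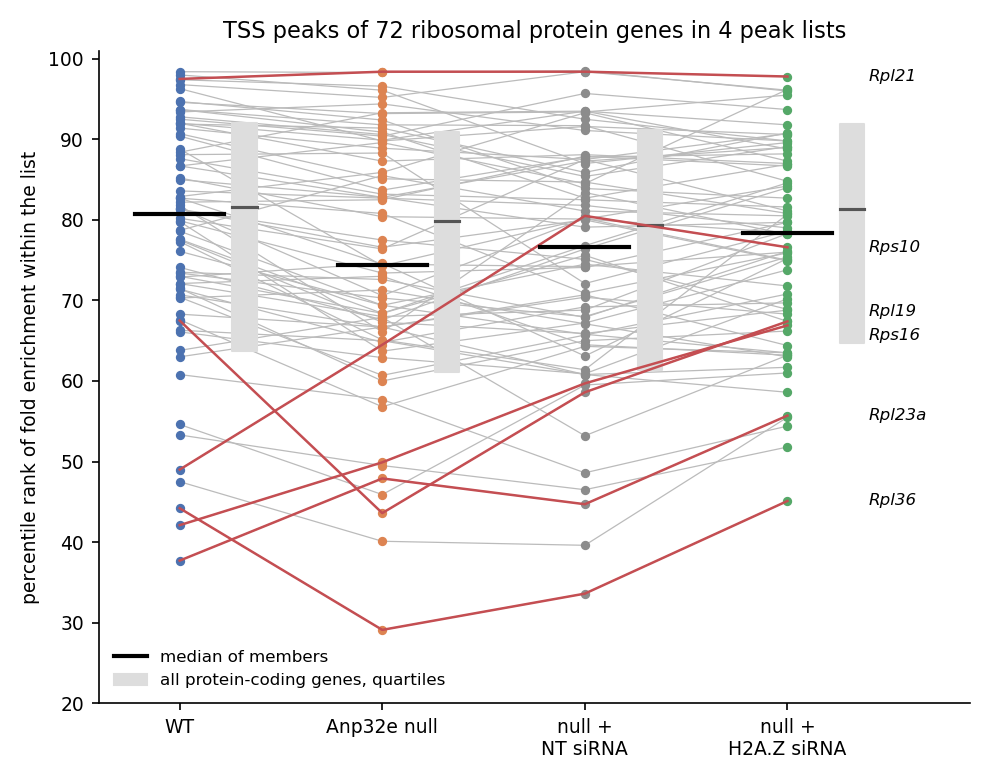
Percentile rank of fold enrichment (vertical axis) of the TSS peak of each of 72 ribosomal protein genes in the 4 peak lists. Points are genes, lines join a gene, black bars are medians of members, grey boxes are quartiles of all protein-coding genes with their median, and red lines mark 6 named genes. Rpl21 stayed within 0.9 points over the lists, whereas Rps10 ranged over 31.5 points.

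The strongest WT peak belonged to Rps29, a zinc-binding protein of the 40S head, at ranks of 98.4, 98.3, 98.5 and 96.0. Its summits held 488, 499, 762 and 2318 fragments, of lists whose genome-wide backgrounds were 8.85, 5.12, 3.88 and 17.82 fragments. Rpl30 (98.0), Rpl21 (97.5), Rpl15 (97.4) and Rpl27 (96.8), all of the 60S subunit, followed in WT. Rpl15 shares its peak with the start of Nkiras1. At the low end stood Rpl23a, at the exit of the peptide tunnel, with ranks of 37.7, 47.9, 44.7 and 55.7. Rps16, whose tail reaches the P-site tRNA, ranked 42.1, 49.9, 59.7 and 66.9 with summits of 47, 48, 155 and 665 fragments. Rpl36 ranked 44.2, 29.1, 33.6 and 45.1, and Rpl8, which lies near the peptidyl transferase centre, 47.5, 40.1, 39.6 and 55.5. Rps10, of the 40S beak, ranked 49.0 in WT. Genes whose products are needed in equal amounts thus spanned ranks of 37.68 to 98.43 in WT.

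Among members with well-known roles, the stalk proteins Rplp0, Rplp1 and Rplp2 ranked 88.4, 82.2 and 82.7 in WT. Rpl5 and Rpl11, which bind 5S rRNA and also the p53 regulator MDM2, ranked 92.5 and 85.2. Rpl3, beside the peptidyl transferase centre, ranked 66.3, and Rpl4, which lines the exit tunnel, 66.1. Rps2 and Rps3, at the entry of the mRNA channel, ranked 71.5 and 85.0. Rps6, the target of S6 kinases, ranked 93.7, Rps19, mutated in Diamond-Blackfan anaemia, 88.1, Rps27a, made as a fusion to ubiquitin, 92.8, and Rpsa 83.6. These ranks fell on either side of the member median.

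Over the 4 lists the rank of a member ranged by a median of 9.0 points, against 10.28 for all genes with 4 peaks. Over 20 points were seen at 3 members, where 19% of all genes had such a range, and these were Rps10 (31.5), Rps16 (24.8) and Rpl19 (23.9). Under 5 points were seen at 9 members, where 21.3% of all genes had so small a range, Rpl21 (0.9), Rpl34 (2.3) and Rps29 (2.6) among them. Rpl21 and Rps29 were also among the 5 strongest WT peaks.

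Peaks at ribosomal protein genes had median widths of 1128, 1093.5, 1118 and 1350.5 bp, against 1151, 1117, 1085 and 1297 bp at all genes. In WT the median member peak ran from −497 bp to 633 bp around the reference TSS, and in H2A.Z siRNA from −508.5 bp to 818 bp. The widest WT peaks were those of Rpl7 (1897 bp), Rpl7a (1688 bp) and Rpl34 (1655 bp), the first of them shared with Rdh10 and the second with Med22. The narrowest were those of Rps28 (603 bp), Rpl28 (645 bp) and Rps10 (660 bp).

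The peak covered the reference TSS in 69, 69, 67 and 71 of 72 members, and in 75.8%, 76.2%, 76.1% and 77.7% of all genes with a peak. The summit lay within 150 bp of it in 53, 52, 53 and 55 members (73.61%, 72.22%, 73.61% and 76.39%), against 43.9%, 46.5%, 47.4% and 46.1% of all genes. In each list, members were thus centred on the start more often than the genes as a whole. Mitochondrial ribosomal protein genes (73.08%, 66.67%, 64.1% and 71.79%) and assembly genes (64.29%, 80.95%, 83.33% and 71.43%) also stood above all genes, the latter above members in null and NT siRNA. In WT, 7 members had the summit more than 300 bp away, at Rpl7, Rpl4, Rpl35, Rps10, Rpl38, Rpl41 and Rps18. The peak standing for Rps18 lay 4260 bp downstream of its reference TSS, beside the start of B3galt4, so that its ranks describe that site. In all, 16 members had a WT peak within 1 kb of the start of another protein-coding gene. The share of all genes was computed neither for this count nor for the 7 distant summits.

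**Figure D2:**
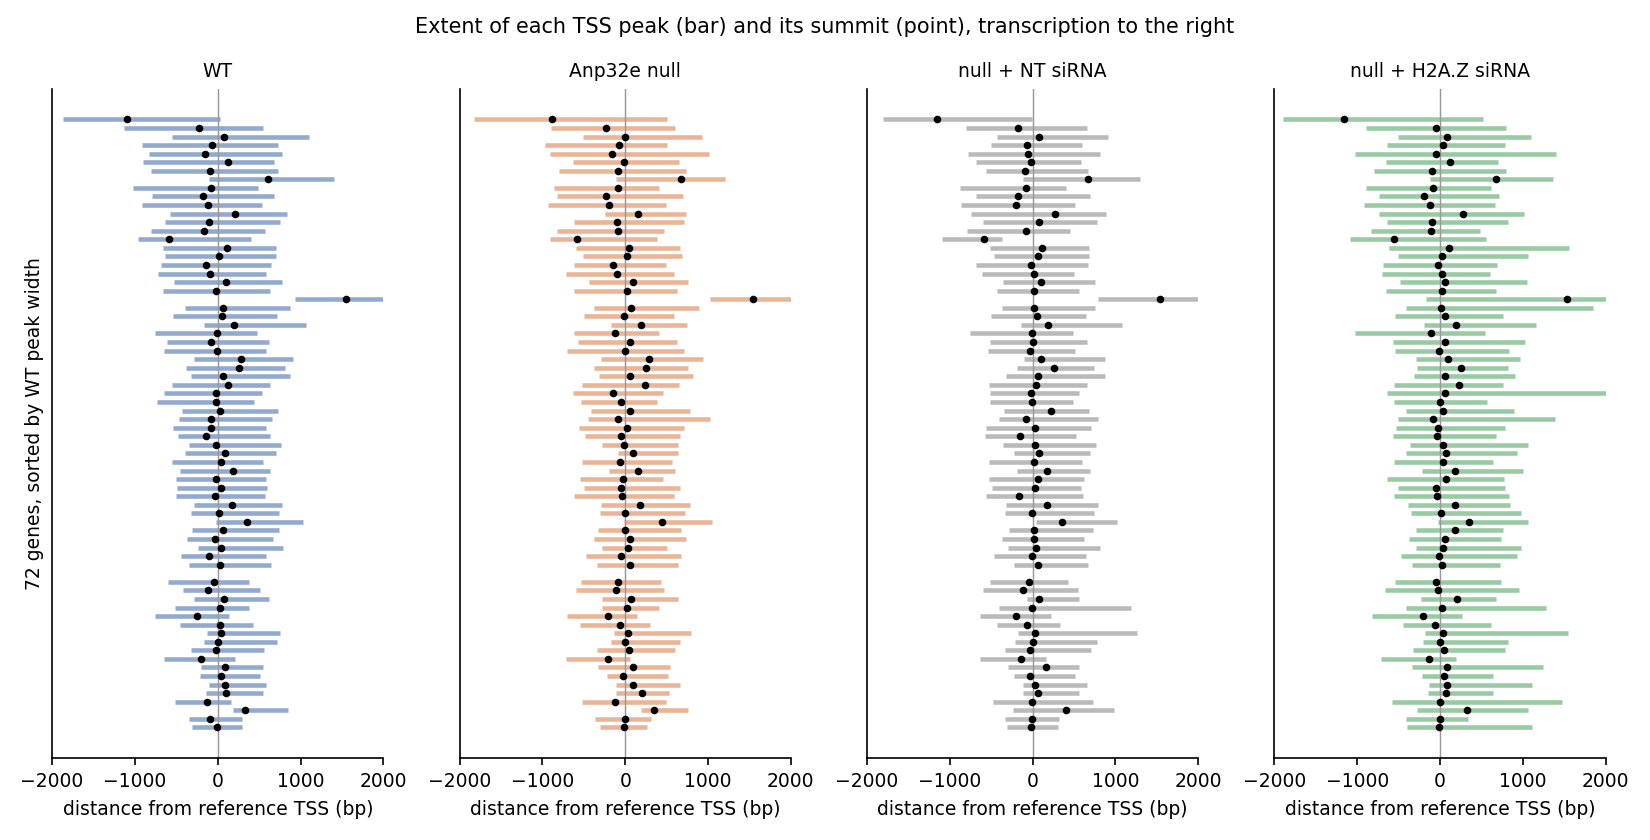
Extent of the TSS peak (bar) and its summit (black point) at 72 ribosomal protein genes, in bp from the reference TSS with transcription to the right, 1 panel per list and genes in the order of WT width. The median width was 1128 bp in the first panel and 1350.5 bp in the last. The axis leaves out the peak of Rps18 and parts of the longest peaks.

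To ask how these promoters differed upon ANP32E loss, WT and null were compared. In null, 56 of 72 members ranked lower and 16 higher (63% and 37% of all genes), with a median difference of −3.08 points against −1.44 for all genes. A fall of at least 5 points was seen at 23 members (26.8% of all genes) and a rise of at least 5 points at 4 (13.7%). The count of falls was thus near the background share and that of rises below it. The 60S genes had a median difference of −2.51 points and the 40S genes −3.85, compared with −0.31 for mitochondrial ribosomal protein genes, −3.09 for translation factors and −0.64 for assembly genes. Ranked by −log10 p, the median difference was −0.36 for members and −0.29 for all genes, and 33 members (45.8%) ranked higher, against 44.1% of all genes, so by this measure members lay near the background. The median by −log10 p was 0.17 for the 60S genes, turned in sign, and −0.53 for the 40S genes.

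Rpl19, which forms a bridge to the 40S subunit, fell most. Its ranks were 67.5, 43.6, 58.6 and 67.4, with summits of 100, 49, 218 and 946 fragments. By fold it was lowest in null and nearly the same in WT and H2A.Z siRNA, whereas its ranks by −log10 p were 73.8, 50.4, 82.6 and 87.6, again lowest in null but above WT in both siRNA lists. Rps24, which like Rps19 is mutated in Diamond-Blackfan anaemia, fell by 16.1 points, from 79.8 to 63.7. Rps9, near the mRNA entry, fell by 15.7 (81.8 to 66.1), Rpl36 by 15.1 (44.2 to 29.1) and Rps27 by 14.5 (88.8 to 74.3). Rpl19, Rps24, Rpl36 and Rps27 carry a pyrimidine run at the start, as do 18 members in all. Members with a run had a median difference of −3.91 points and those without −2.92. Ranked by −log10 p, the differences were nearer to 0 at Rps27 (−8.69), Rps9 (−6.36) and Rpl36 (−4.54).

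The largest rise was that of Rps10, from 49.0 to 64.5, with 53 and 64 summit fragments. Rpl23a rose by 10.3 points (37.7 to 47.9), Rps16 by 7.8 (42.1 to 49.9), Rps25, a protein used in initiation at internal ribosome entry sites, by 6.8 (78.7 to 85.5) and Rplp0 by 4.8 (88.4 to 93.3). By −log10 p, Rps25 rose by 2.02. Ranked among protein-coding TSS peaks, Rps25 rose by more (16.43), as did Rplp0 (15.3). Rps10 (14.24), Rpl23a (5.19) and Rps16 (4.73) rose by less there. Of these 5, Rps10, Rpl23a and Rps16 were among the 5 lowest in WT.

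**Figure D3:**
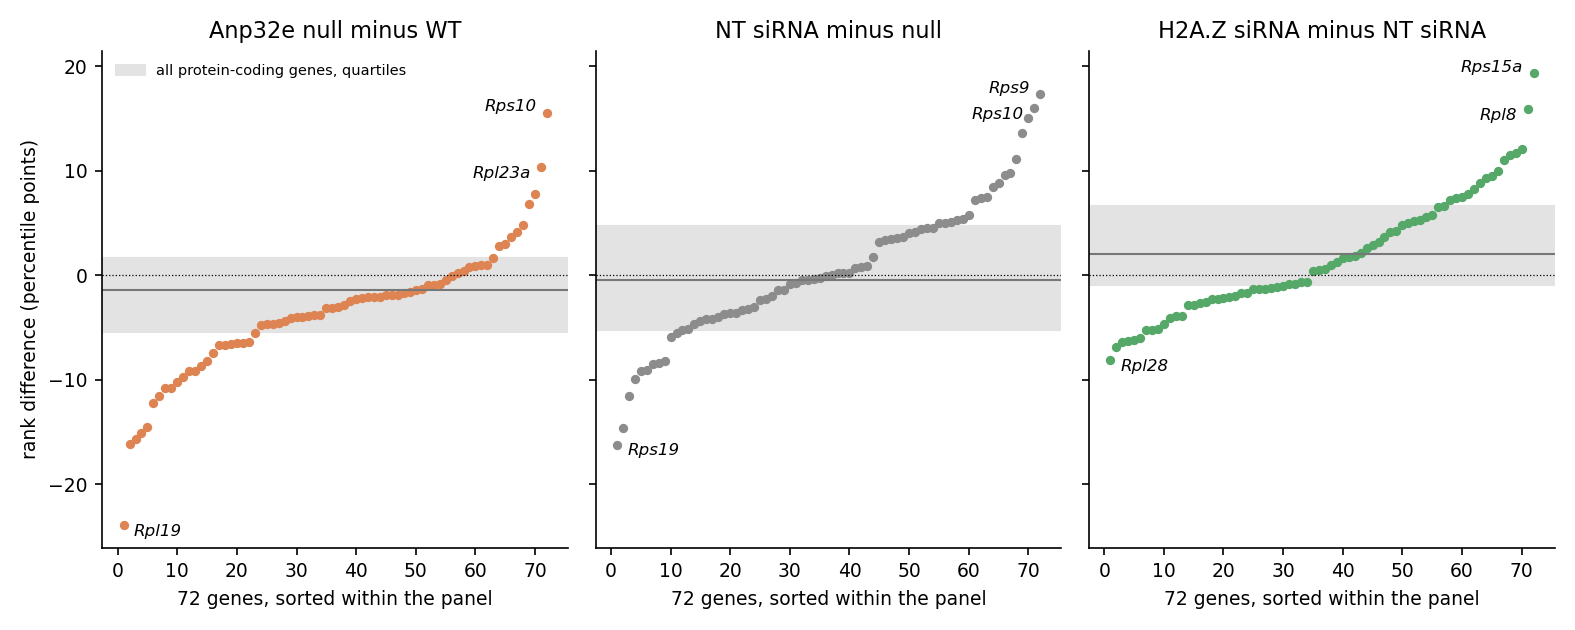
Difference in percentile rank (vertical axis) for each of 72 ribosomal protein genes in 3 comparisons, sorted within each panel. The grey band and line are the quartiles and median of all protein-coding genes. Rpl19 fell by 23.9 points in null, Rps9 rose by 17.3 in NT siRNA and Rps15a rose by 19.3 in H2A.Z siRNA. Neighbouring panels share the null or the NT siRNA list.

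Summit height was also compared directly, as fragments at the summit divided by the genome-wide background of the list. The median over members was 18.81 in WT and 27.54 in null, and over all genes 16.61 and 25.78. The log2 ratio of null to WT had a median of 0.66 for members and 0.64 for all genes, so that relative to the shift of all genes it was 0.02. A scaled summit at least 1.5-fold higher was found at 44 members and 57.5% of all genes, and at least 1.5-fold lower at 0 members and 0.555% of all genes. Relative to the all-gene median, 0 members were 1.5-fold higher (2.04% of all genes) and 2 were lower (6.12%). Rpl19 had a log2 ratio of −0.24 (counting interval −0.76 to 0.27), the only member below 0, and Rps24 0.01 (−0.41 to 0.42). At the other end were Rpl37 with 1.17 (0.98 to 1.36), Rps12 with 1.12 (0.85 to 1.39), Rps10 with 1.06 (0.51 to 1.61) and Rpl3 with 1.01 (0.56 to 1.46). Local background, which enters the fold, had a log2 ratio with a median of 0.42 for members and 0.34 for all genes.

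The peak in null was wider than in WT at 24 members and narrower at 46 (40.1% and 59.3% of all genes), with a median difference of −35.5 bp against −23.0 bp. The WT list was the deeper of the pair, and the part of depth in width was not tested. Rpl7 widened by 438 bp, whereas Rpl30 narrowed by 428 bp. The summit moved by more than 50 bp at 26 members (36.11%) and at 45.8% of all genes. The largest moves were at Rpl7 (209 bp), Rpl9 (142 bp) and Rps12 (−139 bp, upstream). Rpl9 shares its peak with Lias.

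Next, Anp32e null cells with NT siRNA were set against untransfected null cells, a comparison that differs in transfection, depth and 1 against 3 libraries, which cannot be told apart. By rank the members were evenly divided, with 35 higher and 37 lower (46.8% and 53.2% of all genes) and a median difference of −0.06 points against −0.42. Rises of at least 5 points numbered 16 (24% of all genes) and falls 13 (26%). Rps9 rose by 17.3 points (66.1 to 83.4), Rps10 by 16.0 (64.5 to 80.5), Rpl19 by 15.03 (43.6 to 58.6) and Rps15, near the decoding site, by 13.6 (45.9 to 59.5). By −log10 p these rises were 10.24, 24.26, 32.23 and 24.37. Since the null list enters both this comparison and the last, a low null value raises the difference here and lowers it there, as at Rps9 and Rpl19.

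The largest falls were those of Rps19, by 16.2 points (88.3 to 72.1), the Rps18 site, by 14.6 (67.9 to 53.2), Rpl7a, by 11.5 (74.6 to 63.1), the stalk protein gene Rplp2, by 9.9 (80.8 to 70.9) and Rpl35, at the tunnel exit, by 9.2 (57.7 to 48.6). All but Rps19, which fell by 3.51, ranked higher in NT siRNA when −log10 p was used. At Rps18, the peak nearest to the reference TSS rose by 7.32 points.

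Summits were higher in NT siRNA than in null by more at members than at all genes. The scaled summit had a median of 86.08 in NT siRNA against 27.54 in null. The log2 ratio had a median of 1.57 for members and 1.11 for all genes, or 0.46 relative to all genes, and 71 of 72 members were at least 1.5-fold higher (76% of all genes). Relative to the all-gene median, 30 members were at least 1.5-fold higher (22.6% of all genes) and 1 was 1.5-fold lower (21.6%). The largest ratios were those of Rps2 at 2.83 (2.53 to 3.14), with 109 and 587 fragments, Rpl19 at 2.55 (2.10 to 3.03), Rps10 at 2.47 (2.07 to 2.89) and Rpl10a at 2.46 (2.22 to 2.72). The smallest was that of Rpl22 at 0.44 (0.20 to 0.68). Translation factors had a relative median of 0.55, mitochondrial ribosomal protein genes 0.10 and assembly genes 0.22. Local background also rose, by a median log2 ratio of 1.19 at members and 0.73 at all genes, and fold is the ratio of both. By −log10 p, 58 of 72 members ranked higher (60.7% of all genes), with a median difference of 5.63 points against 1.64.

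**Figure D4:**
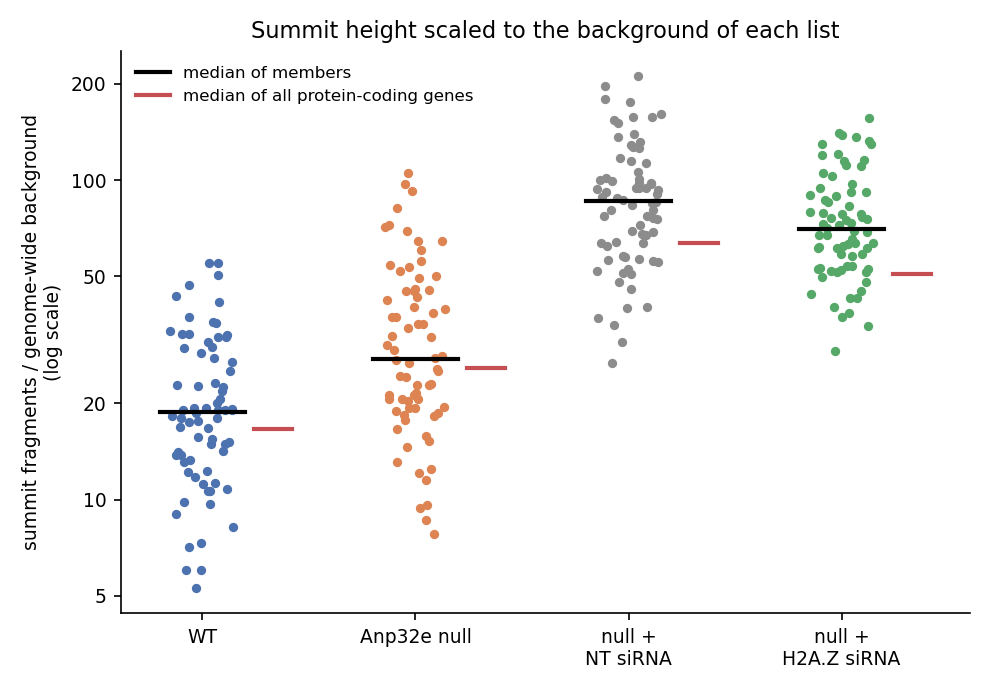
Fragments at the summit divided by the genome-wide background of the list (log scale) for the TSS peaks of 72 ribosomal protein genes in 4 lists. Points are genes, black bars medians of members and red bars medians of all protein-coding genes, and horizontal scatter is for display. Medians of members were 18.81, 27.54, 86.08 and 70.17, above those of all genes at 16.61, 25.78, 63.40 and 50.95.

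To ask how the promoters differed upon H2A.Z depletion, H2A.Z siRNA was compared with NT siRNA, the H2A.Z siRNA list having a background 17.82 against 3.88 fragments deep. Members ranked higher in 38 cases and lower in 34 (67% and 33% of all genes), with a median difference of 0.55 points against 2.07. Rises of at least 5 points numbered 21 (32.4% of all genes) and falls 9 (8.28%). With the same number of peaks taken from each list, 24 members ranked higher (41.6% of all genes), and the median difference was −3.77 against −0.99. Ranked among protein-coding TSS peaks, 30 members ranked higher (56% of all genes), and the medians differed in sign, −2.44 against 0.97. Members thus lay below the all-gene median under each of these settings, while the sign of their own difference turned. By rank in the full lists, mitochondrial ribosomal protein genes had a median of 0.68 points, translation factors 0.85 and assembly genes 0.77.

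Rps15a, of the 40S body, rose most, with ranks of 77.3, 65.1, 61.4 and 80.7 and 172, 125, 156 and 941 summit fragments. Its H2A.Z siRNA rank was the highest of the 4 and lay near that in WT. Rpl8 rose by 15.9 points (39.6 to 55.5), Rpl7a by 12.1 (63.1 to 75.2), Rpl31, at the tunnel exit, by 11.7 (84.5 to 96.2) and Rpl36 by 11.5 (33.6 to 45.1). With lists of equal size the differences were 6.87 at Rpl8, 7.35 at Rpl7a and −0.25 at Rpl36, and by −log10 p 8.93, 6.69 and 4.04, with 7.68 at Rpl31. Rpl28 fell most, by 8.1 points (75.6 to 67.4). Among the next largest falls, Rpl12, at the base of the stalk, fell by 6.3 (70.7 to 64.4) and Rpl17 by 6.2 (75.1 to 68.9). With lists of equal size these 3 differences were −16.35, −15.05 and −13.9, and by −log10 p −3.47, −1.45 and 1.48.

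Scaled summits were lower in H2A.Z siRNA at 59 of 72 members and higher at 13 (13% of all genes), with a median log2 ratio of −0.25, against −0.31 for all genes, or 0.06 relative to them. A fall of at least 1.5-fold was seen at 3 members (15.7% of all genes) and a rise at 0 (1.06%). Relative to the all-gene median, 3 members were 1.5-fold higher (2.94% of all genes) and 0 lower (3.71%). Among the lowest ratios was −0.59, at Rps29 (−0.71 to −0.47) and Rpl15 (−0.74 to −0.44). The highest were 0.44 at Rpl31 (0.25 to 0.64) and 0.39 at Rps15a (0.15 to 0.65). Local background had a median log2 ratio of 0.03 at members and −0.08 at all genes.

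All 72 member peaks were wider in H2A.Z siRNA than in NT siRNA, as were 94.4% of all gene peaks (5.39% were narrower), by a median of 234.5 bp at members and 151 bp at all genes. The gain was larger downstream, where the edge moved by a median of 136.5 bp (67 bp at all genes), than upstream, where it moved by −45 bp (−54 bp at all genes). Among the largest gains were 2221 bp at Rpl3 (1067 to 3288 bp) and 995 bp at Rpl41 (1430 to 2425 bp), and the smallest gain was 29 bp at Rps3. The wider peaks came with the deeper list and the part of depth was not tested. The summit moved by more than 50 bp at 21 members (29.17%) and at 38.2% of all genes.

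Members that host snoRNAs are set beside the others here. Median ranks were 80.24, 74.55, 74.20 and 75.87 in the 27 hosts and 81.47, 72.61, 80.06 and 78.64 in the other 45 members. By −log10 p they were 85.68, 84.43, 92.61 and 93.81 in hosts and 86.24, 86.09, 92.17 and 92.68 in the others, so the order turned in every list but WT. The log2 summit ratio of NT siRNA to null had a median of 1.70 in hosts and 1.48 in the others. Members with a CCGGAAG match had WT and null median ranks of 83.61 and 82.52, and those without 78.73 and 72.61. The median of the differences per gene ran in the other order, −3.95 points with a match and −2.51 without. Members with a pyrimidine run had a median rank difference of 3.42 points in both later comparisons, against −0.34 and −0.08 without. These splits of a single list have no replicate check.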

How the data were processed

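ATAC-seq libraries of 4 MEF groups had been aligned to mm10 with Bowtie2, cleared of PCR duplicates with Picard and called with MACS2 in paired-end mode, as the study's methods state. The labels name 1 peak list for all libraries of a group, and how the libraries were combined for calling is not given in the sources used here. Each deposited list gives, per peak, the authors' fold enrichment (a ratio with a pseudocount of 1), −log10 p and q values, a display score that was not used and a summit position, and 84040, 82567, 89272 and 108409 peaks on chromosomes 1 to 19, X and Y were used for WT, null, NT siRNA and H2A.Z siRNA. Whole-fragment pileup and local background were solved from fold and −log10 p under the Poisson model of MACS2, within 0.05 of a whole number for 100% of peaks. The solution was tested on simulated data. The genome-wide background of a list, its most frequent value, served as its depth.

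Gene models were those of GENCODE M21, and GRCm38 is the assembly that mm10 names. The highest-fold peak within 1 kb of any annotated TSS stood for a gene. Shares carry a 95% Wilson interval and log2 summit ratios an exact Clopper-Pearson interval on the fragments of both summits. For the processing alternatives, medians were held against a 95% order-statistic interval over the members. That interval describes spread among genes and not among replicates. The members, gene lists and motifs were chosen with earlier results of these data known. Named genes were the 5 largest rises and falls in rank per comparison, the 5 highest and lowest WT ranks, the 3 widest and narrowest WT peaks, the 3 largest summit moves between WT and null, and genes with textbook roles, some of which are not reported here. Members with the largest or smallest summit ratios, width changes between lists and rank ranges were named after their values were seen. Sequences were read from GRCm38 and RefSeq starts from its GRCm38.p6 table. Python 3.11.15, NumPy 2.4.6, SciPy 1.17.1, pandas 2.3.3, pysam 0.24.0, samtools 1.23.1 and matplotlib 3.10.9 were used. Alternatives were another window, stricter peak lists, depth scaling, other ranks and another choice of peak.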

Additional observations from a re-analysis of the deposited data

How the results depend on the processing

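Of 111 main values under an alternative, 85 stayed within their interval or within 1.5 times the count, 25 moved and 1 reversed, whereas of 120 rank differences of single genes 76 shifted by less than 5 points, 37 by more and 7 reversed. A median rank difference or log2 ratio was called reversed only if its sign turned and its main interval, over genes, excluded 0. The reversed main value was the median log2 summit ratio of H2A.Z siRNA to NT siRNA, 0.06 when scaled to the median of protein-coding genes. The same scaling gave 0.02 for null to WT and 0.46 for NT siRNA to null. Median rank differences whose interval held 0 also changed sign. That for H2A.Z siRNA against NT siRNA went from 0.55 to −2.436 and −3.77, and that for NT siRNA against null from −0.06 to 5.628. With the nearest annotated TSS, the median summit position changed sign in WT (10 to −21.5 bp), NT siRNA (12.5 to −4.5 bp) and H2A.Z siRNA (28.5 to −6 bp). Presence stayed at 100% with a window of 500 bp, with the reference TSS alone, with pileups scaled to the shallowest list and among peaks of −log10 q at or above 5, but fell to 61.11%, 47.22%, 48.61% and 37.5% of members in WT, null, NT siRNA and H2A.Z siRNA among the top 20000 peaks. The share of all genes was not computed under this cut, which takes a smaller part of a longer list. Depth was scaled by the ratio of backgrounds and not by random thinning.

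Ranking by −log10 p gave member medians of 86.11, 85.30, 92.17 and 93.11, median differences of −0.3585 (33 members higher) for null against WT and 5.628 (58 higher, 14 lower) for NT siRNA against null. Ranking among protein-coding TSS peaks gave medians of 49.86, 42.47, 46.53 and 45.31 and −2.436 for H2A.Z siRNA against NT siRNA. The same number of peaks, 82567, gave a median of 71.59 in H2A.Z siRNA, −1.562 for NT siRNA against null and −3.77 (24 higher) for H2A.Z siRNA against NT siRNA. The nearest annotated TSS put the median summit of H2A.Z siRNA at −6 bp. Reversed single genes for NT siRNA against null were Rps18 (5.14), Rpl7a (4.763), Rplp2 (1.111) and Rpl35 (1.046) by −log10 p and Rps18 by its nearest summit (7.315). For H2A.Z siRNA against NT siRNA they were Rpl17 (1.478, by −log10 p) and Rpl36 (−0.2495, same number of peaks). Ranked among protein-coding TSS peaks, differences moved by over 1.5 times without reversing for null against WT at Rps27 (−24.96), Rpl36 (−5.846), Rplp0 (15.3), Rps25 (16.43), Rps16 (4.727) and Rpl23a (5.187), for NT siRNA against null at Rps19 (−29.3), Rplp2 (−15.22) and Rps9 (27.07), and for H2A.Z siRNA against NT siRNA at Rpl28 (−15.5), Rpl12 (−11.47), Rpl17 (−13.07), Rpl36 (3.415), Rpl31 (27.58) and Rpl8 (6.782). The causes were not tested, beyond the scaling and list sizes that define each alternative. Leaving out the 16 members beside another gene, or the 7 with distant summits, both chosen after seeing the data, moved no median rank or rank difference beyond its interval, nor, for the 16, a median log2 ratio. Widths and summit positions were not run without them. No paired analysis was possible because 1 list stands for all libraries of a group, and for the same reason no library was left out in turn. Depth limits all differences, the lists differing in background from 3.88 to 17.82 fragments.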

Other observations

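Ribosomal protein genes left out of the members, by name or for lying on chromosome X, also had TSS peaks in all 4 lists. Fau, whose product is a ubiquitin-like fusion to a 40S protein, ranked 43.5, 39.2, 48.6 and 57.2 in WT, null, NT siRNA and H2A.Z siRNA. Rps3a1 ranked 92.3, 90.5, 91.3 and 88.3, and Rack1, a scaffold on the 40S head, 89.3, 89.3, 80.1 and 84.3. The X-linked Rpl10 ranked 84.7, 80.7, 63.9 and 69.1, Rpl36a 92.2, 95.8, 96.8 and 91.2, Rpl39 82.7, 84.4, 81.8 and 82.6, and Rps4x 78.1, 74.5, 84.9 and 83.7.

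The paralogs differed from the core genes in presence. No list had a TSS peak at Rpl3l, the paralog of striated muscle, at Rpl10l or Rpl39l, which are expressed in testis, or at Rps27rt. Rpl22l1 (98.3, 97.9, 96.2 and 96.5), Rps27l, a p53 target (92.1, 93.5, 90.4 and 95.3), Rpl36al (93.4, 91.0, 79.3 and 86.4) and Rpl7l1 (79.6, 76.2, 82.1 and 85.6) had a peak in every list. Rps4l, annotated as a transcribed processed pseudogene, ranked 80.6 in WT and 50.8, 47.6 and 67.3 in null, NT siRNA and H2A.Z siRNA, with summits of 81, 32, 32 and 151 fragments.

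Of 259 pseudogenes named after ribosomal proteins, 22, 20, 22 and 33 had a peak within 1 kb of an annotated start in WT, null, NT siRNA and H2A.Z siRNA (8.49%, 7.72%, 8.49% and 12.7%), against 6.18%, 6.09%, 6.17% and 7.75% of all pseudogenes, and 15 had one in every list. The median ranks of those with a peak, which are not the same pseudogenes in each list, were 29.88, 45.48, 51.23 and 55.07, against 58.61, 57.86, 60.77 and 59.38 for all pseudogenes. Over the 16 with a peak in both WT and null the median difference was 5.57 points, against −1.005 over 580 of all pseudogenes. By −log10 p these medians were 3.28 and −0.39. Of the 247 named pseudogenes that lie over 2 kb from a protein-coding TSS, 20 had a peak in WT and 35 in at least 1 list.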
